A study of Homo sapiens with 6 samples.

Results

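Endothelin-1 (EDN1), tissue factor (F3), vascular endothelial growth factor C (VEGFC), thrombospondin 1 (THBS1), fibronectin (FN1), matrix metallopeptidase 2 (MMP2) and the metallopeptidase inhibitor TIMP1 were followed in KLE cells with and without LATS1 and LATS2. These 7 genes were taken by their symbols from a deposited table of 414 genes, and each symbol stood in 1 row. Their products, apart from the membrane protein tissue factor, are secreted. Together they reach vessel tone and growth, clotting and the extracellular matrix.

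KLE is an established human endometrial carcinoma cell line, and it was grown in medium with serum. The parental group was the unedited (WT) line and held 3 libraries. The LATS1/2-KO group also held 3 libraries and came from cells in which CRISPR/Cas9 had disrupted both kinase genes, after which single cells were expanded into clones. How many clones the 3 libraries represent is not given in the sources used here, nor whether libraries of a group came from separate cultures, so p-values measure the spread between these libraries, which may be technical.

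LATS1 and LATS2 are the kinases of the Hippo pathway that phosphorylate the co-activators YAP and TAZ and so keep them from TEAD transcription factors in the nucleus. Among the genes that YAP and TEAD are known to switch on in many cell types are secreted and matricellular factors, THBS1 being one of them. Endothelin-1 constricts vessels, tissue factor starts the clotting cascade by binding factor VII, and VEGF-C drives the growth of lymphatic vessels. Thrombospondin 1 and fibronectin are large glycoproteins that cells bind through integrins, MMP2 degrades type IV collagen, and TIMP1 blocks metallopeptidases.

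The table lists only genes that had already been called different between these same libraries. LATS1 and LATS2 themselves were not analysed here. Parental replicates 1, 2 and 3 held 4064052, 3252765 and 3008692 counts over the 414 genes. The LATS1/2-KO libraries, called 5, 6 and 7 after their columns, held 1862422, 613161 and 1180727. These sums are not sequencing depths, since most genes are missing from them. Scaled counts are counts brought to the depth of parental replicate 2. On that scale parental replicates 1 and 3 had depths of 1.18 and 0.801, and LATS1/2-KO libraries 5, 6 and 7 had depths of 1.08, 0.400 and 0.670. The fewest reads were in library 6, where low counts are the least precise.

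The scale between the groups was read from the counts. A list cut at a fixed fold on both sides leaves an empty interval around no change, and such an interval was found. Over 199 genes with at least 50 counts in parental replicates 2 and 3 and in all LATS1/2-KO libraries, no log2 ratio lay between -0.999 and 0.999 once its midpoint was set to 0. Of these genes, 108 lay below and 91 above. MMP2, at -1.02, was among the genes closest to the lower edge. F3, THBS1 and FN1 lay at 1.17, 1.71 and 1.89 and TIMP1 at -1.33. Setting the midpoint to 0 in effect takes over the zero of the authors' cut, so this scale is not independent of their comparison. A listed gene with enough counts then lies outside the interval by construction.

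**Figure D1:**
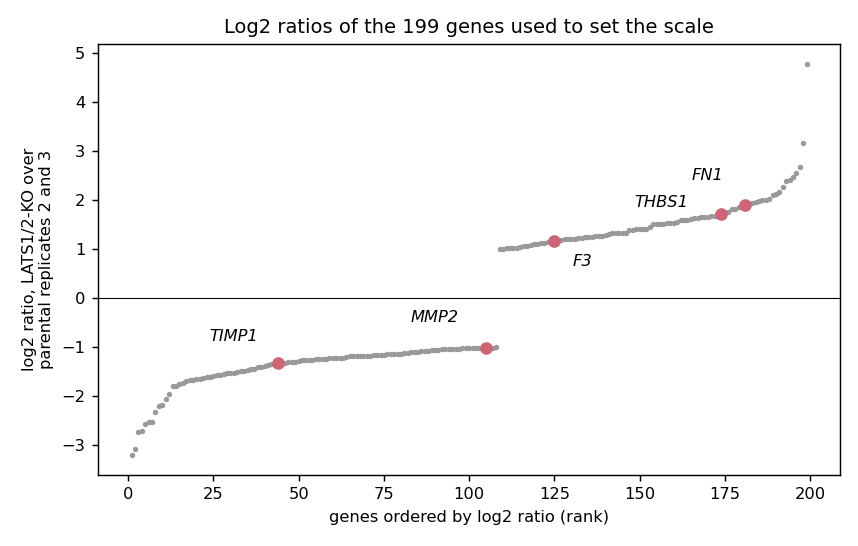
Log2 ratios of mean scaled counts, LATS1/2-KO over parental replicates 2 and 3 (vertical axis), for 199 genes ordered by that ratio (horizontal axis, rank). No gene lies between -0.999 and 0.999, and the 5 labelled members with enough counts stand at both sides, with MMP2 near the lower edge.

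Before the genes are compared, 1 library has to be set apart. Parental replicate 1 differed over 4-fold from the mean of parental replicates 2 and 3 in 76 of 323 genes (those reaching 50 counts in any parental library). FN1 was one of these, with 10.1 times the mean scaled count of the other parental replicates. The same ratio was 1.63 for MMP2, 0.945 for TIMP1, 0.911 for THBS1, 0.850 for F3 and 0.573 for EDN1. Results for the 7 genes are therefore given with and without this library.

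With all 6 libraries, 4 of the 7 genes rose in LATS1/2-KO cells (EDN1, VEGFC, F3 and THBS1), MMP2 and TIMP1 fell, and FN1 did not pass the test (edgeR's quasi-likelihood test, Benjamini-Hochberg adjusted p under 0.05 over the 414 genes). Among all listed genes, 123 (29.7%) rose and 180 (43.5%) fell, together 73.2%, so a call is the usual outcome for a listed gene. Another scaling changes this balance. With TMM factors over the listed genes, 139 rose and 84 fell, and with median-of-ratios factors 141 rose and 132 fell. These factors raise all log2 fold changes, by a median of 0.67 and 0.52. Without parental replicate 1, 213 genes (51.4%) rose and 190 (45.9%) fell, 97.3% in all, and of the 7 genes 5 rose and 2 fell. Because the table was selected on these libraries, none of these p-values is independent evidence of a change. A call without parental replicate 1, given to nearly all listed genes, comes close to restating that selection. When the unlisted genes of the annotation (58780 genes in all) entered the adjustment as wholly unchanged, edgeR called 0 genes, and the smallest adjusted p, which THBS1 shared with other genes, was 0.0517. At an unadjusted edgeR p under 0.05 there were 310 genes, and DESeq2 called 312 over the table.

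The groups did not overlap in 6 of the 7 genes, with LATS1/2-KO above parental in 4 and below in 2. Of all listed genes, 35.7% had all LATS1/2-KO libraries above and 44.2% below. For each of these 6 genes the exact permutation test over libraries (two-sided) gave p = 0.1, the smallest that 3 against 3 can give, so this test cannot reach 0.05. FN1 gave p = 0.4 in the same exact test.

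EDN1 (ENSG00000078401.7_4, chromosome 6 from 12290363 to 12297194, plus strand, in GENCODE version 29 on GRCh38) had 38, 26 and 69 counts in parental replicates 1, 2 and 3. It had 323, 180 and 303 counts in LATS1/2-KO libraries 5, 6 and 7. The lowest LATS1/2-KO library, at 300.4 scaled counts, stood above the highest parental one, at 86.1. Mean scaled counts were 48.1 ± 33.1 in parental and 400.8 ± 87.0 in LATS1/2-KO cells (SD, n = 3 libraries each). The fold change was 8.34, or 3.06 on the log2 scale (standard error 0.56, edgeR adjusted p = 0.0058), and 2.84 (standard error 0.56) without parental replicate 1. Parental replicate 3 carried more EDN1 than the other parental libraries, and leaving it out gave 3.70. All parental counts were low, so the size of the rise is known less well than its direction. In bulk RNA, a larger share of cells with a message and more message per cell cannot be told apart.

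VEGFC (ENSG00000150630.4_5, chromosome 4 from 176683538 to 176792727, minus strand) had 0 counts in each of the 3 parental libraries. LATS1/2-KO libraries 5, 6 and 7 had 30, 15 and 5 counts, which are 27.9, 37.5 and 7.47 scaled counts. Every LATS1/2-KO library thus held VEGFC reads, library 7 the fewest. Setting the parental group at 3 counts over its libraries, the 95.0% Poisson limit for a total of 0, VEGFC was at least 23.2-fold higher in LATS1/2-KO cells, and at least 13.996-fold higher without parental replicate 1. This floor covers the counting error of the parental zeros and takes the LATS1/2-KO total of 50 counts as measured. The edgeR adjusted p was 0.012 with all libraries and 0.0506 without LATS1/2-KO library 6, where the gene no longer passed.

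Tissue factor, F3 (ENSG00000117525.14_5, chromosome 1 from 94529225 to 94541800, minus strand), was already abundant in parental cells. Its counts were 5075, 5439 and 3724 in parental replicates and 12080, 4128 and 8308 in LATS1/2-KO libraries. After scaling, the parental libraries lay between 4288 and 5439 and the LATS1/2-KO libraries between 10312 and 12406. The mean rose 2.36-fold, from 4791 ± 589 to 11318 ± 1050 (SD over 3 libraries each), or 1.24 on the log2 scale (standard error 0.14, edgeR adjusted p = 0.00171). The value was 1.17 without parental replicate 1, and leaving out each library in turn gave log2 values from 1.13 to 1.31.

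THBS1 (ENSG00000137801.11_5, chromosome 15 from 39581079 to 39599466, plus strand) had the smallest error of the 7. It had 2363, 2186 and 1761 counts in parental replicates and 7440, 3156 and 4489 in LATS1/2-KO libraries. The parental libraries were close to each other, between 1997 and 2197 scaled counts, and all LATS1/2-KO libraries stood between 6703 and 7884. THBS1 rose 3.37-fold, with means of 2127 ± 113 and 7169 ± 629 (SD over 3 libraries each), which is 1.75 on the log2 scale (standard error 0.12, edgeR adjusted p = 0.000364). The value was 1.71 without parental replicate 1. CCN1, another matricellular YAP/TEAD target, rose by a similar 1.96 (standard error 0.13, edgeR adjusted p = 0.000364).

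FN1 (ENSG00000115414.20_8, chromosome 2 from 215360440 to 215436172, minus strand) depended on 1 library. Its counts were 2924, 277 and 170 in parental replicates 1, 2 and 3 and 1112, 361 and 530 in LATS1/2-KO libraries 5, 6 and 7. On the scaled counts, parental replicate 1 (2471) stood above all LATS1/2-KO libraries (791 to 1034), while parental replicates 2 and 3 (277 and 212) stood below all of them. With all libraries the means were 987 ± 1286 and 909 ± 122 (SD, n = 3 each), and the log2 fold change was -0.12 (standard error 0.98, edgeR adjusted p = 0.925). Without parental replicate 1 fibronectin rose 3.72-fold, or 1.89 on the log2 scale (standard error 0.20, edgeR adjusted p = 0.000531), from 244.6 ± 45.9 scaled counts (SD, n = 2). Without that replicate 97.3% of all listed genes were called, so this call largely repeats the selection of the table. Leaving out any other library gave FN1 values between -0.67 and -0.06 without passing the test. The sign of FN1 with all libraries also turned with the scaling, to 0.59 under TMM and 0.52 under median-of-ratios factors, neither past the threshold.

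The authors' own normalized value of FN1 did not follow this count. It was 10.4 in parental replicates 1 and 2 and 10.3 in replicate 3. For all 414 genes the deposited normalized value of parental replicate 1 lay midway between those of replicates 2 and 3 to within 1e-05, so that column holds no reading of its own for any of the 7 genes.

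MMP2 and TIMP1, a protease and an inhibitor of its family, fell together. MMP2 (ENSG00000087245.13_7, chromosome 16 from 55389700 to 55506691, plus strand) had 1431, 760 and 583 counts in parental replicates and 405, 166 and 208 in LATS1/2-KO libraries. Parental replicate 1 was the highest at 1209 scaled counts, the other parental libraries had 760 and 727, and the LATS1/2-KO libraries lay lower, between 311 and 415. Group means were 899 ± 269 and 367 ± 52.7 scaled counts (SD over 3 libraries each), so MMP2 fell by 1.29 in log2 units (standard error 0.27, edgeR adjusted p = 0.00818). It was -1.02 (standard error 0.17) without parental replicate 1, and -0.62 (edgeR adjusted p = 0.0686) with TMM factors, where MMP2 did not pass.

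TIMP1 (ENSG00000102265.12_4, X chromosome from 47582313 to 47586789, plus strand) had by far the most counts of the 7 genes. It had 81393, 66970 and 63019 in parental replicates and 35108, 10561 and 18579 in LATS1/2-KO libraries. Scaled, the parental libraries lay between 66970 and 78636 and the LATS1/2-KO libraries between 26382 and 32652. TIMP1 fell 2.47-fold, with group means of 71461 ± 6280 and 28926 ± 3298 scaled counts (SD over 3 libraries each), which is -1.30 on the log2 scale (standard error 0.14, edgeR adjusted p = 0.00134). Without parental replicate 1 the value was -1.33, and with TMM factors it was -0.64 (edgeR adjusted p = 0.0275).

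**Figure D2:**
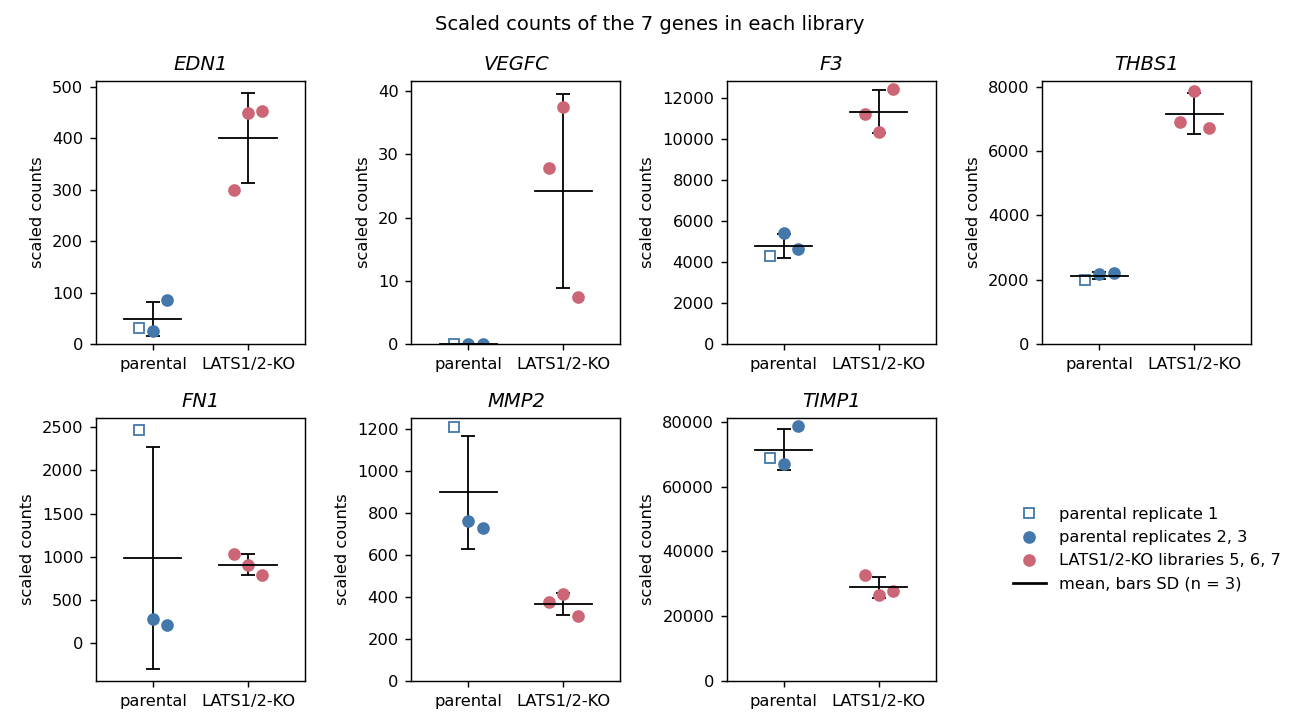
Scaled counts (vertical axes, counts at the depth of parental replicate 2) of each gene in 3 parental and 3 LATS1/2-KO libraries, with the mean and SD of each group (n = 3). The groups stand apart in every panel except FN1, where parental replicate 1 (open square, 2471) lies above the LATS1/2-KO libraries and replicates 2 and 3 lie below them.

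A ratio of 2 genes within a library does not depend on any scale between libraries. Per 100 TIMP1 counts there were 1.76, 1.13 and 0.925 MMP2 counts in parental replicates and 1.15, 1.57 and 1.12 in LATS1/2-KO libraries. The protease-to-inhibitor ratio of the messages thus overlapped between groups, with means of 1.27 ± 0.433 and 1.28 ± 0.252 (SD, n = 3 each; exact permutation test, two-sided, p = 0.9, adjusted 0.9 over the 6 ratios reported). With so wide a spread between libraries, this p does not show that the ratios were equal.

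For 3 of the other ratios to TIMP1 the groups stood apart, though the exact test cannot call them. THBS1 stood at 2.99 ± 0.246 counts per 100 TIMP1 counts in parental and 25.1 ± 4.42 in LATS1/2-KO cells (SD, n = 3 each), F3 at 6.76 ± 1.19 and 39.4 ± 5.16, and EDN1 at 0.0650 ± 0.0387 and 1.42 ± 0.433. In each of these 3 all LATS1/2-KO libraries lay above all parental ones (exact permutation test, two-sided, p = 0.1, adjusted 0.2). The fall of TIMP1 enters each of these ratios. Genes listed as changed in opposite directions give such a separation largely through the selection of the table. FN1 per 100 TIMP1 counts was 3.59, 0.414 and 0.270 in parental replicates 1, 2 and 3 and 3.17, 3.42 and 2.85 in LATS1/2-KO libraries (exact permutation test, two-sided, p = 0.4, adjusted 0.6). Parental replicate 1 lay above all LATS1/2-KO libraries, and the other parental replicates, with a mean of 0.342, lay below all of them.

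FN1 per 100 THBS1 counts was 12.7 and 9.65 in parental replicates 2 and 3 and 14.9, 11.4 and 11.8 in LATS1/2-KO libraries, ranges that overlap. In parental replicate 1 it was 124. Among these 7 genes, that replicate thus departed far in fibronectin and not in thrombospondin.

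**Figure D3:**
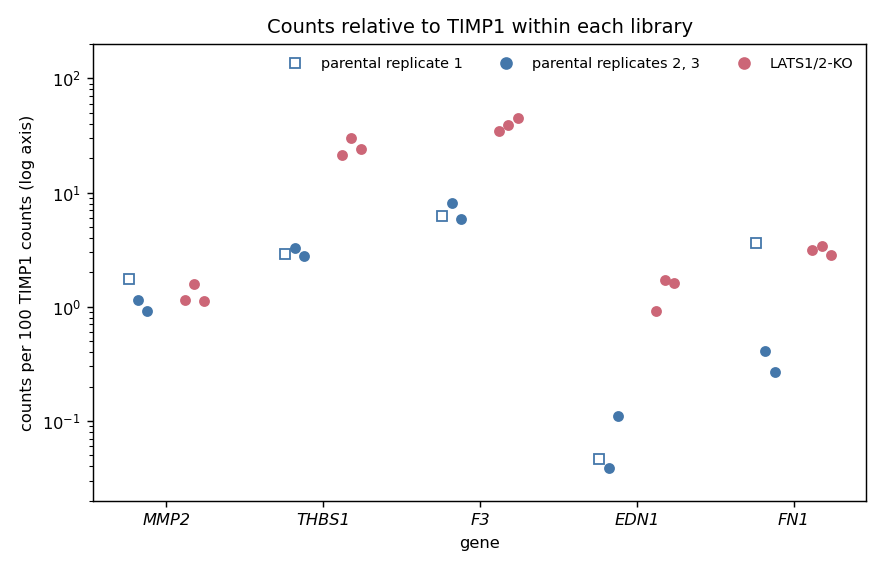
Counts of 5 genes per 100 TIMP1 counts of the same library (log axis) in parental and LATS1/2-KO libraries. The MMP2 ratios overlap near 1.27 and 1.28, the THBS1, F3 and EDN1 ratios of LATS1/2-KO libraries lie above all parental ones, and for FN1 parental replicate 1 (3.59) lies just above the LATS1/2-KO libraries.

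Levels were also compared between genes as scaled counts per kilobase of annotated exon. In parental cells the order was TIMP1 (46373 ± 4075), F3 (1667 ± 205), THBS1 (232 ± 12.3), MMP2 (182 ± 54.6), FN1 (57.0 ± 74.3), EDN1 (23.6 ± 16.3) and VEGFC (0), with SD over n = 3 libraries. THBS1 and MMP2 overlapped between libraries, as did FN1 and EDN1. Without parental replicate 1, FN1 was at 14.1 ± 2.65 and stood below EDN1 at 27.6 ± 20.9 (SD, n = 2 libraries), still with overlapping libraries. THBS1 and MMP2 then no longer overlapped, with THBS1 at 239 and 239.9 and MMP2 at 154 and 147. In LATS1/2-KO cells TIMP1 (18771 ± 2140), F3 (3937 ± 365) and THBS1 (783 ± 68.6) kept the first places. EDN1 followed with 197.2 ± 42.8, above MMP2 (74.5 ± 10.7), FN1 (52.5 ± 7.02) and VEGFC (10.03 ± 6.33). No neighbours overlapped there. TIMP1 message remained the most abundant of the 7 in both groups. The exon lengths pool all isoforms, from 1541 bases for TIMP1 to 17315 for FN1, so these levels are approximate for FN1, which has many.

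The sequence around the start site was examined next. RefSeq start-site windows (GRCh38.p14), from 250 bases before to 50 bases after the start, were found for 6 of the 7 genes. There were 3 windows for EDN1, of which the 1 nearest the GENCODE start was used. MMP2 was not matched. The motifs searched, on both strands, were the TEAD core GGAATG (or CATTCC), the AP-1 site TGANTCA, the GC box GGGCGG (or CCGCCC) and the TATA box TATAAA (or TTTATA). The windows of THBS1, F3 and EDN1 are shown up to their first annotated start, because these genes rose in every setting that used the list's own adjustment and differ in the motifs they hold. They are written 5′ to 3′ in the sense of the gene, with TEAD, AP-1 and TATA motifs in capitals, and lie at chr15:39580829-39581078 (plus strand), chr1:94541801-94542009 (minus strand) and chr6:12290111-12290360 (plus strand).
THBS1: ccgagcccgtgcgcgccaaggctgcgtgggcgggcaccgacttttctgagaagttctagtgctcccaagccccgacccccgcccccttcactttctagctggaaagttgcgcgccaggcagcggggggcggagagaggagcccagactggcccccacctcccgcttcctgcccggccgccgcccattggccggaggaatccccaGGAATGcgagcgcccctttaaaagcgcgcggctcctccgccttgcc
F3: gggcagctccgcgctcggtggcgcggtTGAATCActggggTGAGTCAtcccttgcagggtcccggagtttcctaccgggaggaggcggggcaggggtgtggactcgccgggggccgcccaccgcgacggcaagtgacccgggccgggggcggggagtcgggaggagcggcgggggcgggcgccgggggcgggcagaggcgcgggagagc
EDN1: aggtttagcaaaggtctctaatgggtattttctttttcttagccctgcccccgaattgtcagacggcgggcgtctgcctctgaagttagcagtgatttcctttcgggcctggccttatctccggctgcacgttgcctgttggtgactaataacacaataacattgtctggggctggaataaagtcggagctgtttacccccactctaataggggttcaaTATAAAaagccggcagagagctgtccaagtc

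The THBS1 window held 1 TEAD core, GGAATG, whose first base is 46 bases before the start, and 4 GC boxes. The F3 window held 2 AP-1 sites, TGAATCA and TGAGTCA, whose first bases are 223 and 210 bases before the start, together with 4 GC boxes and a TATA box 28 bases before it, the last beyond the stretch shown. The EDN1 window held a TATA box 31 bases before the start and none of the other motifs. A TEAD core was in 1 of the 6 windows and in 14.03% of all 35116 windows, an AP-1 site in 1 of 6 and 7.71%, a GC box in 5 of 6 and 45.0%, and a TATA box in 2 of 6 and 11.5%. A match describes letters only. TEAD commonly binds at distant enhancers, which these windows do not cover.

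Other genes of the same pathways were taken from functional lists and counted where the table held them. Genes outside the table were not analysed here. Of 17 genes of the endothelin, adrenomedullin and angiotensin systems, the table held EDN1 and ADM, and both rose, as did 29.7% of all listed genes (51.4% without parental replicate 1). ADM, which encodes the vasodilator peptide adrenomedullin, had 1152, 460 and 404 counts in parental replicates and 1561, 675 and 995 in LATS1/2-KO libraries. ADM rose by 1.25 in log2 units (standard error 0.32, edgeR adjusted p = 0.0161), and 1.68 without parental replicate 1.

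Of 10 VEGF ligands and receptors, the table held VEGFC and NRP2. Neuropilin 2, a co-receptor that binds VEGF-C, went opposite to its ligand. NRP2 had 282, 94 and 67 counts in parental replicates and 18, 10 and 19 in LATS1/2-KO libraries, and all LATS1/2-KO libraries lay below after scaling. On the log2 scale NRP2 fell by 2.57 (standard error 0.59, edgeR adjusted p = 0.0107), and by 1.93 without parental replicate 1.

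Of 35 genes of coagulation and fibrinolysis, the table held 3, and 2 rose while 1 fell, with and without parental replicate 1, where 73.2% and 97.3% of all listed genes were called. The risers were F3 and GAS6, a vitamin K-dependent ligand of the receptor AXL. GAS6 had 145, 35 and 58 counts in parental replicates and 193, 100 and 143 in LATS1/2-KO libraries, and rose by 1.48 in log2 units (standard error 0.51, edgeR adjusted p = 0.0413). PLAU, the urokinase plasminogen activator, went from 822 ± 34.6 down to 365 ± 21.0 scaled counts (SD over 3 libraries each), a log2 difference of -1.17 (standard error 0.14, edgeR adjusted p = 0.00197). The median log2 fold change of the 3 was 1.24 with all libraries and 1.17 without parental replicate 1, against -0.35 and 1.17 over the table. Both medians of the list are F3's own values, so the match without that replicate describes F3 and not the list.

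Of 54 glycoproteins, laminins and collagens, the table held 10, and with all libraries 4 rose, 3 fell and 3 did not pass. With 7 of 10 called, the list was near the 73.2% of all listed genes. THBS1, CCN1, EFEMP1 and TINAGL1 rose. EFEMP1, which encodes fibulin 3, rose, with means of 2719 ± 74.5 and 10401 ± 1362 scaled counts (SD over 3 libraries each), by 1.94 on the log2 scale (standard error 0.13, edgeR adjusted p = 0.000364). MFAP2, of elastic microfibrils, fell by 2.11, LAMB3, a laminin-332 chain, by 1.45, and TGFBI, an integrin-binding protein, by 1.04. The genes that did not pass were FN1, MFGE8 and COL8A1. Without parental replicate 1 those 3 rose as well, giving 7 risers and 3 that fell, where 97.3% of all listed genes were called. The median log2 fold change was 0.62 with all libraries and 1.80 without that replicate, against -0.35 and 1.17 over the table.

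MFGE8, which encodes the adhesive glycoprotein lactadherin, resembled FN1 in its parental counts. It had 1729, 16 and 13 counts in parental replicates and 110, 65 and 65 in LATS1/2-KO libraries. In log2 units MFGE8 stood at -2.05 (standard error 1.77, edgeR adjusted p = 0.336) with all libraries and 2.89 without parental replicate 1.

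Of 30 metalloproteinases and inhibitors, the table held MMP2, TIMP1, TIMP4 and MME. TIMP4 had 3732, 1120 and 949 counts in parental replicates and 487, 215 and 269 in LATS1/2-KO libraries, and in log2 units it fell by 1.97 (standard error 0.47, edgeR adjusted p = 0.0119), and by 1.32 without parental replicate 1. MME, the membrane peptidase neprilysin, which degrades endothelin-1, had 1903, 0 and 0 counts in parental replicates and 205, 51 and 84 in LATS1/2-KO libraries. It did not pass with all libraries (log2 fold change -1.86, edgeR adjusted p = 0.534). Without parental replicate 1 the 2 remaining parental libraries had no count, and MME was called higher (edgeR adjusted p = 0.000479). The 3 secreted members that the table held were called lower, as were 43.5% of all listed genes, and the result for MME depended on that replicate.

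Of 23 receptors for fibronectin, thrombospondin and other matrix, the table held ITGB2, ITGB4 and SDC2. ITGB4, the laminin-binding partner of integrin α6, fell by 1.18 (standard error 0.37, edgeR adjusted p = 0.0297). ITGB2 had 0 counts in all parental libraries and 33, 19 and 5 in LATS1/2-KO libraries, the same order of libraries by scaled count as VEGFC. ITGB2 was called higher with all libraries (edgeR adjusted p = 0.0128) and without parental replicate 1 (edgeR adjusted p = 0.00682). SDC2 had 240, 36 and 27 counts in parental replicates and 162, 65 and 73 in LATS1/2-KO libraries, and did not pass with all libraries (log2 fold change 0.63, edgeR adjusted p = 0.512). SDC2 rose by 2.01 in log2 units without parental replicate 1 (standard error 0.38, edgeR adjusted p = 0.00335).

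Few markers of other cells were in the table. It lists only genes called different, so a marker missing from it may be expressed alike in both groups or not at all. It held 0 of 10 fibroblast markers, 0 of 5 platelet markers, 1 of 10 endothelial markers (ESAM) and 1 of 7 leukocyte markers (ITGB2). ESAM had 25, 0 and 0 counts in parental replicates and 47, 22 and 18 in LATS1/2-KO libraries. ESAM was not called with all libraries and was called higher without parental replicate 1. ITGB2 was called higher with and without that replicate. Of 9 epithelial markers it held KRT19, at 30967, 32635 and 26496 counts in parental replicates and 16722, 5505 and 9287 in LATS1/2-KO libraries, so this keratin was abundant in every library although it fell by 1.09 on the log2 scale (edgeR adjusted p = 0.00205). The part of other cells in these results was not tested.

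Genes with the most similar profile were sought for each member with a mean of at least 50 counts, as the root-mean-square difference of centred log2 scaled counts over 6 libraries among 313 candidates. This is a description, since libraries of 2 groups give any pair of changed genes a shared pattern. The nearest to F3 was AXL (0.0895), which had 35196, 35222 and 23637 counts in parental replicates and 69093, 24980 and 49702 in LATS1/2-KO libraries. The nearest to THBS1 was IFIT3 (0.0929), followed by CCN1 (0.131). TIMP1 was nearest to NAA38 (0.0935) and PSMB6 (0.0996), and MMP2 to RNPEPL1 (0.0888) and FURIN (0.142), the protease that activates many secreted precursors. EDN1 had no close neighbour, the nearest being OLR1 (0.414) and BMP4 (0.454). Its parental counts were low and uneven, which can widen the distance of EDN1 to any gene. FN1 was nearest to CNN3 (0.265), an actin-binding calponin, and TLE1 (0.346). CNN3 had 5672, 493 and 445 counts in parental replicates and 1975, 809 and 1514 in LATS1/2-KO libraries, so it shared the high parental replicate 1 with FN1.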

How the data were processed

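RNA sequencing of 6 KLE libraries was deposited as 1 table. The authors deposited read counts per gene in 6 columns, and these counts were used. The deposited normalized values of the parental libraries, whose columns are named TPM but give VEGFC 8.42 where its count is 0, were read as a score on a scale that is not stated and used only to compare the parental columns. The 3 normalized LATS1/2-KO columns and the authors' own fold changes, p-values and directions were not used as values. The scale between groups does rest on which genes the authors listed. The submitters' processing notes name cutadapt, HISAT2, StringTie, DESeq2 and the build hg19; versions are not given in the sources used here, and the strand setting of the counting is not either. LATS1/2-KO columns are numbered 5, 6 and 7, so each was assigned to the group and not to a numbered sample.

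Counts were scaled within each group by the median ratio over genes with at least 50 counts, and between groups by the midpoint of the widest gap of the log2 ratios, searched within 3 log2 units of equal counts. edgeR 4.0.16 (R 4.3.3) quasi-likelihood tests were fitted to all 414 genes with these scales, with and without parental replicate 1, and called at a Benjamini-Hochberg adjusted p of 0.05 over the 414 genes. Standard errors were taken as the log2 fold change over the root of its F statistic. DESeq2 gave no adjusted p for 36 genes, FN1 among them. Single values and ratios were compared by exact permutation over libraries. DESeq2 1.42.0, other scalings, a filter of at least 10 counts in every library and the omission of each library were alternatives. The scripts were tested on simulated data. Of the 7 genes, 6 had at least 10 counts in every library. Named genes were the 7 members, all table genes of the functional and marker lists, and the 2 nearest profiles of each member with a mean of at least 50 counts (log2 of scaled counts plus 1). A gene of the coagulation list is not reported here, and the list's counts leave it out. Members and lists were chosen with earlier results of these data known. Positions and exon lengths came from GENCODE version 29 on GRCh38, in which 410 of the 414 genes were found, since the table holds no coordinates.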

Additional observations from a re-analysis of the deposited data

How the results depend on the processing

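Over 82 alternative values for the 7 genes that had a test, 71 kept direction and call, 8 kept direction and lost the call, and 3 changed sign. FN1 under DESeq2 had no adjusted p and is not among them. The sign changes were all of FN1, at 1.89 without parental replicate 1, 0.59 under TMM scaling and 0.52 under median-of-ratios scaling. The lost calls were MMP2 with TMM factors (log2 fold change -0.62), VEGFC without LATS1/2-KO library 6 (7.07), and, when the unlisted annotated genes entered the adjustment, EDN1 (3.06), F3 (1.24), VEGFC (7.38, a fitted value that depends on the prior count), THBS1 (1.75), MMP2 (-1.29) and TIMP1 (-1.30). Leaving out each library gave 2.73 to 3.70 for EDN1, 1.13 to 1.31 for F3, 7.07 to 7.84 for VEGFC, 1.64 to 1.76 for THBS1, -0.67 to 1.89 for FN1, -1.496 to -1.02 for MMP2 and -1.42 to -1.28 for TIMP1. The number of listed genes called higher ran from 100 to 213 and lower from 152 to 190 when a library was left out, both highest without parental replicate 1. It was 84 lower with TMM factors, and 0 in each direction when adjusted over the annotation, where the added genes enlarge the adjustment. The causes of the other changes were not tested. No paired analysis was possible because the LATS1/2-KO columns carry numbers that match no replicate number in the labels. Low counts limit EDN1 in parental cells and VEGFC throughout.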
